A study of Mus musculus with 13 samples.

Results

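Early-only H3K27ac regions were places in the genome of C2C12 myoblasts that carried a called peak of acetylated histone H3 lysine 27 before and at the switch to differentiation medium and at none of 4 later times. They were chosen by their own peak calls. All peaks of 7 wild-type lists (-24, 0, 6, 12, 24, 48 and 72 h) were merged where they shared at least 1 base, and a region was kept when it held a peak at -24 h and at 0 h and none at 6, 12, 24 or 72 h. The 48 h list took part in the merging but not in the choice. There were 1523 such regions among 133768 merged regions. They made up 3.78% of the 40305 regions with a peak at both -24 and 0 h, a share fixed by the rule. Absence here means that a list held no peak, so a region whose signal lay under the authors' cutoff counts as absent. The name early-only refers to the 6 selecting lists, and 328 of these regions (21.5%) held a wild-type peak at 48 h.

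C2C12 is a mouse myoblast line that fuses into myotubes in low serum. Chromatin immunoprecipitation followed by sequencing gave H3K27ac in wild-type cells before and at the switch (-24 and 0 h) and after 6, 12, 24, 48 and 72 h in medium with horse serum. A further 5 libraries were made at 48 h from cells labelled as knockouts of Myod1 and of sites named H1, H3, H2 with H3, and H3 with H4. The series title speaks of hotspots within super-enhancers, and the labels give no position for these sites, nor whether each line is 1 clone. The labels also list a CRISPR control at that time, not analysed here, which leaves the wild type as the only unedited sample at 48 h.

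H3K27ac is placed on nucleosomes by the acetyltransferases p300 and CBP at active promoters and enhancers, and deacetylases remove it. Cycling myoblasts keep growth and lineage enhancers acetylated. When serum is withdrawn the cells leave the cell cycle, and MyoD, the transcription factor encoded by Myod1, opens and acetylates enhancers of muscle genes while part of the myoblast programme is shut down.

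Each condition had 1 library, so no test between conditions was possible, and every interval below is a 95% Wilson interval that covers counting error only. The 6 selecting lists held 69251 to 101331 peaks, and the 6 lists at 48 h held 55585 to 137960. Read depth is unknown. The lists for the 4 deletion lines went down to a −log10 p of 3.01 to 3.03, while the wild-type and Myod1 knockout lists at 48 h stopped at 4.13 and 4.02. Positions are given on the mouse build mm9, for which no annotation was used here, so regions carry no gene names and myoblast marker genes could not be looked up.

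Early-only regions were narrow. Their median width was 261 bp, the central 90% ran from 139 to 628 bp, and the extremes were 115 and 1670 bp. Only 13 reached 1 kb and 403 were under 200 bp. The underlying peaks were shorter still, with a median of 161 bp at -24 h and 169 bp at 0 h, against 244 and 263 bp for all peaks of those lists. In 1466 regions (96.3%) the match was between exactly 1 peak at -24 h and 1 at 0 h. The 2 peaks mostly lay on top of each other, sharing a median of 115 bases or 90.5% of the shorter one. In 226 regions (14.8%, 13.1 to 16.7) they shared under 50% of the shorter, and in 28 they shared no base and were joined through the 48 h peak.

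Width rose with how long a peak was kept. Regions with peaks at -24 and 0 h whose last of an unbroken run of peaks was at 6 h (952 regions) had a median width of 382 bp. The median was 497 bp for a last peak at 12 h (3492 regions), 639 bp for one at 24 h (4371 regions) and 1097 bp for the 25417 regions present in all 6 selecting lists. More peaks entered each merge in the longer-lived classes, so part of this order follows from the merging. A match by number of lists alone is the 14 other pairs of times, whose regions had peaks in exactly 2 of the 6 lists. Their median was 264 bp, and each of these pairs includes a later list. The early-only median was thus close to that of other regions seen in 2 lists.

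The scores of early-only regions lay low in their lists. The lists of the time course carry a score with no stated unit, so each peak was ranked within its own list. The median percentile was 29.4 at -24 h and 26.7 at 0 h. It was 38.7 and 33.7 for regions last seen at 6 h, 44.6 and 47.0 for those last seen at 12 h, 56.1 and 59.2 for a last peak at 24 h, and 76.4 and 81.7 for regions in all 6 lists. Of the 1523 regions, 242 (15.9%) reached percentile 50 of the -24 h list and 230 (15.1%) that of the 0 h list, but only 72 (4.73%, 3.77 to 5.91) did so in both. At or above percentile 75 there were 27 at -24 h and 3 at 0 h. None reached percentile 90 in either list. At the other end, 362 (23.8%) were below percentile 25 in both lists.

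**Figure D1:**
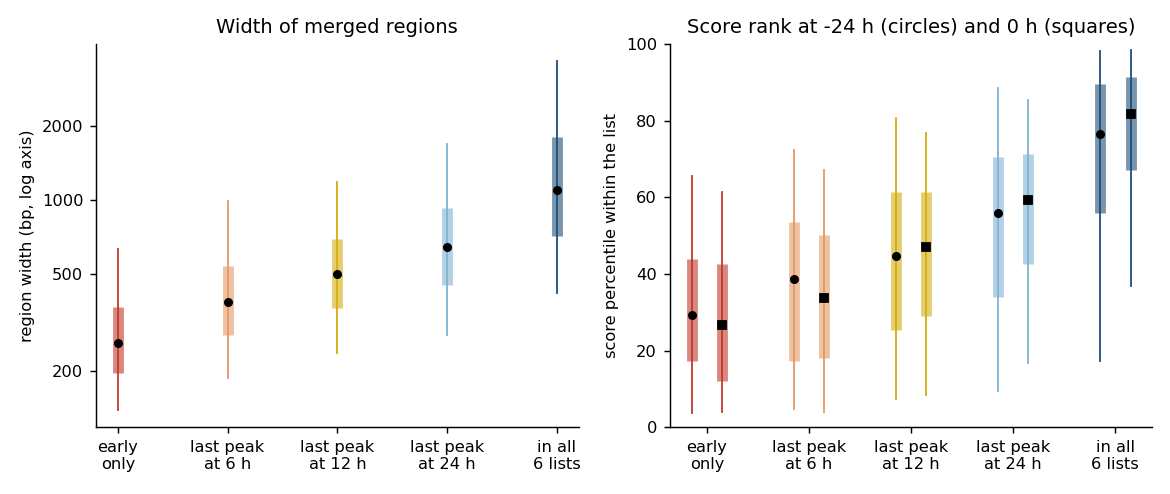
Width in bp (left, log axis) and score percentile at -24 h (circles) and 0 h (squares, right) of regions that had both early peaks, by the last list of an unbroken run of peaks. Points are medians, thick bars the middle 50% and thin lines the central 90% of regions. Early-only regions are lowest in all 3 measures, with medians of 261 bp and percentiles of 29.4 and 26.7.

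Read the other way, the share of early regions that were early-only fell steeply with score. Among regions with a mean percentile under 10 at -24 and 0 h, 21.1% (17.8 to 24.9, n = 506) were early-only. The share was 14.2% between percentiles 20 and 30, 5.01% between 40 and 50 and 0.71% between 60 and 70. It was 0.02% between 80 and 90, and 0% above 90. These shares restate the rule's own lists by score and carry no test.

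A few regions went against this. The strongest by mean percentile, chr6:131296929-131297160, had scores of 29.19 at -24 h and 28.18 at 0 h, percentiles 86.2 and 84.6. It was only 232 bp wide. Its nearest later peak began 221 bp away and its nearest 6 h peak 1810 bp away. Of the 6 libraries at 48 h only the H3 and H4 deletion had a peak there, with a −log10 p of 14.15. The second, chr2:180170990-180171899, was 910 bp wide with scores of 16.61 and 30.29, and had no peak in any 48 h library. A later peak lay 28 bp from its edge. The third, chr12:96838025-96838214, had scores of 23.05 and 14.79 and no peak at 48 h, and here the nearest later peak was 22.9 kb away. The next, chr18:66488464-66489136, scored 24.88 and 13.61, with a 6 h peak 55 bp away and a 48 h peak in the H3 and H4 deletion. In chr16:13420305-13420654, scored 22.05 and 14.94, the H2 and H3 deletion alone had a peak, near that list's cutoff with a −log10 p of 3.05. The sixth, chr3:151094226-151094432, scored 21.15 and 14.96 and had peaks in the H1, the H2 and H3, and the H3 and H4 deletions. None of these 6 strongest regions had a 48 h peak in the wild type or the Myod1 knockout. For the sixth, the nearest such peaks lay 215 bp (wild type) and 487 bp (knockout) away. For the rest they were at least 4393 bp away.

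Most early-only regions had a later peak close by. A 6 h peak lay within 1 kb of 866 early-only regions (56.9%, 54.4 to 59.3), and the median distance to it was 702 bp. For 12 h the share was 58.0%. The 24 h list gave 34.3% and a median distance of 2643 bp, and the 72 h list 26.5% and 5929 bp. Later peaks near early-only regions were thus fewer at 24 and 72 h than at 6 and 12 h. The lists also differed in length, with 82369 peaks for 6 h, 101331 for 12 h, 80069 for 24 h and 69251 for 72 h, and the part of this in the order was not tested. A region present in all 6 lists was within 1 kb of 25.7% of early-only regions.

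Taking all 4 later lists together, 449 regions (29.5%) had a later peak within 200 bp and 1059 (69.5%, 67.2 to 71.8) within 1 kb. At the other extreme, 286 (18.8%) had none within 5 kb and 70 (4.60%, 3.65 to 5.77) none within 50 kb. Regions of the other 14 patterns of 2 lists that lacked a 6 h peak had one within 1 kb in 55.1% of cases, close to the early-only share. The 2 groups separated more at the late times. For 24 h the share of the other patterns was 48.6% against 34.3%, and for 72 h it was 41.9% against 26.5%. All those other regions without a peak in the given list hold one in another later list, which the early-only rule forbids. The comparison is therefore not between like regions.

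**Figure D2:**
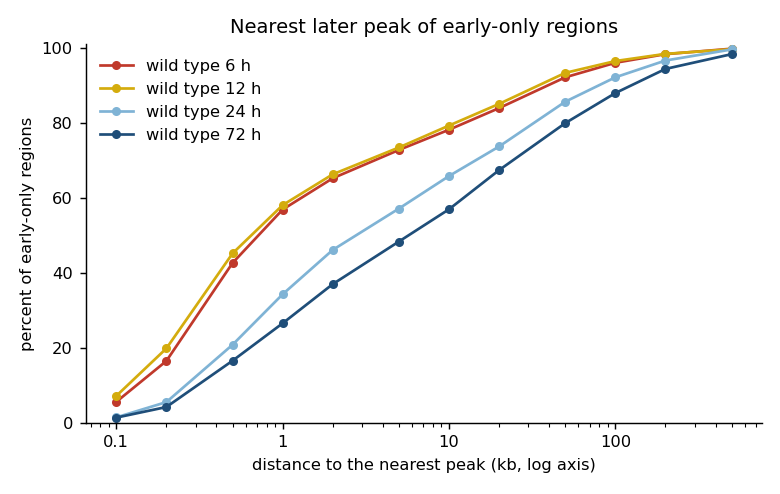
Cumulative percentage of the 1523 early-only regions (y axis) with a peak of the 6, 12, 24 or 72 h list within a given distance (x axis, kb, log axis). The 6 and 12 h curves pass 56.9% and 58.0% at 1 kb, and the 24 and 72 h curves pass 34.3% and 26.5%.

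The edge of the rule was thin. One early-only region, chr3:104042667-104043058, touched a later peak with 0 bases between them. Just outside, chr8:71153379-71154349 shared 2 bases with a 6 h peak and so was left out, and it had a peak in all 6 libraries at 48 h. In all, 2507 regions (6.22% of the 40305) missed the rule by 1 later list. That list was 6 h for 952 of them, 12 h for 1330, 24 h for 133 and 72 h for 92. Peaks were most numerous at 12 h, and dropping this time from the rule raised the number of early-only regions to 2853.

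Other pairs of lists help to place the number 1523. Of the 15 possible pairs of times, -24 and 0 h ranked 5 by number of regions with peaks in that pair only. The largest pairs were 0 and 12 h (2550 regions), 6 and 12 h (2371), 12 and 72 h (1901) and 12 and 24 h (1604), and the smallest was -24 and 72 h (134). All 4 pairs that outnumbered the early-only regions contained the 12 h list.

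Early-only regions lay near each other more often than other early regions lay near them. Another early-only region was within 50 kb of 468 (30.7%, 28.5 to 33.1). The corresponding share was 17.2% among the other regions with -24 and 0 h peaks and 14.5% among regions in all 6 lists. Within 1 kb the shares were 8.73% against 2.52% of the other regions with -24 and 0 h peaks, and within 100 kb 41.0% against 25.4%. Regions that missed the rule by 1 list had an early-only region within 50 kb in 28.2% of cases, close to the early-only regions themselves. Such grouping was shared by other patterns. For the other 14 pairs of lists, the share of regions with another region of the same pair within 50 kb ran from 1.14% to 42.7%, and it was 34.2% for the 1604 regions of 12 and 24 h and 23.2% for the 1243 regions of -24 and 12 h. The early-only value lies between those of these similarly sized patterns.

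In all, 206 groups of at least 2 early-only regions were formed by gaps of up to 50 kb, and 9 groups had at least 4 regions (40 regions together). The largest held 6 early-only regions over 60.3 kb at chr3:102111640-102171925, among 15 regions with -24 and 0 h peaks. Over this span the lists from -24 to 72 h held 25, 20, 10, 9, 7 and 3 peaks in order of time. At 48 h there were 8 in the wild type, 1 in the Myod1 knockout, 15 in the H1 deletion, 5 in the H3 deletion, 11 in the H2 and H3 deletion and 10 in the H3 and H4 deletion. Of its 6 early-only regions, none had a wild-type, Myod1 knockout or H3 deletion peak at 48 h, and 2 had a peak in each of the other 3 lines. Over the stretch, 3 regions were kept in all 6 lists. The wild-type 48 h list, not used to select, held 8 peaks there, against 7 at 24 h and 3 at 72 h.

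**Figure D3:**
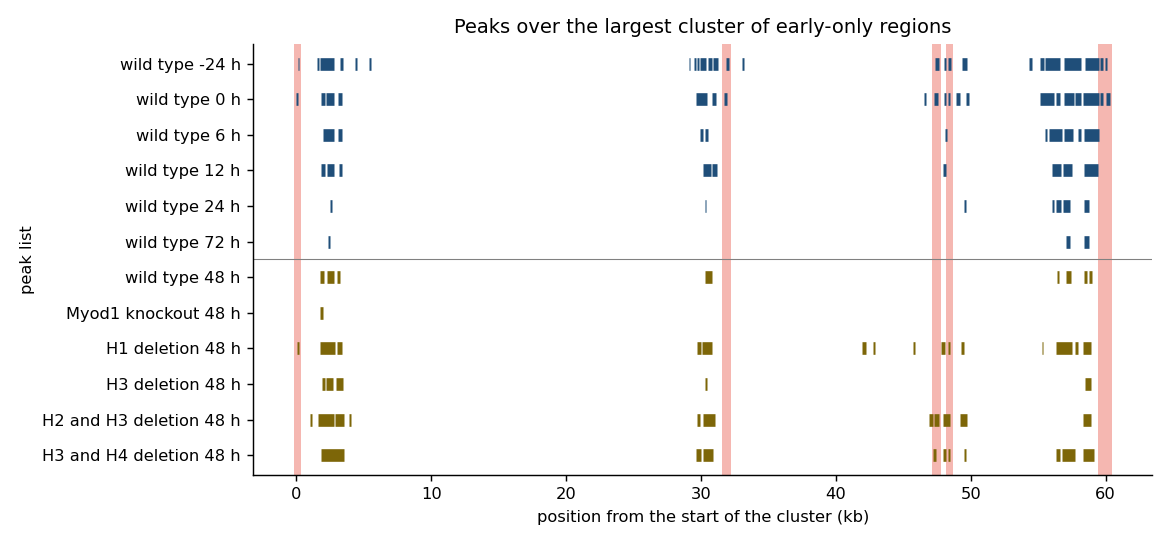
Peaks (bars) of the 12 libraries over the largest group of early-only regions, by distance in kb from its start. The y axis lists the libraries, blue for the time course without 48 h and brown for the 48 h libraries, and pink bands mark the 6 early-only regions with 0.15 kb added on each side. The number of bars is 25 at -24 h, 8 in the wild type at 48 h and 3 at 72 h.

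The next 3 groups also held fewer peaks at the later times of the selecting lists. A group of 5 in 21.9 kb at chr1:56720720-56742639 made up 5 of 8 regions with early peaks, and no region there was kept in all 6 lists. Its peaks went from 8 at -24 h and 11 at 0 h to 3 at 6 h, and none was left at 72 h. At 48 h 4 of the 5 regions had a peak in the H3 and H4 deletion, 2 in the H2 and H3 deletion, 1 in the wild type and none in the other libraries. A group of 5 at chr16:34528037-34610094 spanned 82.1 kb, and its peaks went from 11 at -24 h and 14 at 0 h to 7 at 6 h and 4 at 72 h. The most compact, 4 regions in 4.19 kb at chr9:22482400-22486587, went from 8 peaks at -24 h to 1 at 72 h, and none of its 4 regions had a peak in any 48 h library. These groups were picked by their number of early-only regions, so the fall between 0 and 6 h follows from the choice.

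Presence of a peak at 48 h was not part of the rule, though the wild-type 48 h list took part in the merging. In the wild type at 48 h, 328 early-only regions (21.5%, 19.5 to 23.7) held a peak, although the 24 and 72 h lists on either side had none. Among all 115230 regions with a peak in at least 1 of the 6 selecting lists the share was 39.3%, and among the other 14 patterns of 2 lists 24.1%. The early-only share was thus near that of other regions seen in 2 lists, all of which had a peak in a later list. In 28 of the 328 regions the early peaks were joined only through a wild-type 48 h peak, so a peak there was fixed by the merging. In the other direction, a 48 h peak that bridges an early and a later peak takes a region out of the class. With the 48 h list left out of the merging the share was 31.0%.

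In the Myod1 knockout at 48 h, 107 early-only regions (7.03%, 5.85 to 8.42) held a peak, the lowest share of the 6 libraries. The share was 27.1% for regions with a peak in at least 1 selecting list and 11.0% for the other patterns of 2 lists. Both the wild type and the knockout had a peak in 46 early-only regions, the wild type without the knockout in 282 and the knockout without the wild type in 61. The 282 made up 18.5% (16.6 to 20.5), near the 17.2% of regions with a peak in at least 1 selecting list and the 18.6% of the other patterns of 2 lists. The 61 made up 4.01% (3.13 to 5.11), against 5.004% and 5.48%. The 46 made up 3.02% (2.27 to 4.01), against 22.1% and 5.49%. Of the early-only regions with a wild-type 48 h peak, 14% (10.7 to 18.2) also had a knockout peak, against 22.8% (21.5 to 24.2) in the other patterns of 2 lists. The knockout list was the shortest of the 6. With as many peaks kept in each 48 h list as the knockout had, its share of all early-only regions was still the lowest, and the other 5 libraries had 10.7% to 29.4%.

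On the full lists, the deletion lines had peaks in more early-only regions than the wild type, in an uneven way. For the H1 and H3 deletions this depended on the settings given below. The H1 deletion had a peak in 462 (30.3%, 28.1 to 32.7) and the H3 deletion in 422 (27.7%, 25.5 to 30.0). The H2 and H3 deletion had a peak in 691 (45.4%, 42.9 to 47.9) and the H3 and H4 deletion in 669 (43.9%, 41.5 to 46.4). Over regions with a peak in at least 1 selecting list the shares were 59.7%, 49.9%, 59.7% and 59.5% in the same order, so there the H1 line stood level with both 2-site deletions. Over the other patterns of 2 lists they were 53.5%, 40.4%, 52.8% and 51.7%. Merging and list length mattered for the comparison with the wild type. With the 48 h list left out of the merging, the wild type had 31.0%, the H1 deletion 34.8% and the H3 deletion 31.5%. With peaks within 1 kb merged, the wild type had 32.8%, above the H1 deletion at 31.6% and the H3 deletion at 27.3%. With the same number of strongest peaks kept in each 48 h list, the H1 share was 10.7%, below the wild type at 14.45%, while the H3 share was 15.5%, that of the H2 and H3 deletion 29.4% and that of the H3 and H4 deletion 23.9%. No 48 h library had a peak in 536 early-only regions (35.2%, 32.8 to 37.6), against 22.3% and 23.4% in the same 2 backgrounds, all on the full lists.

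**Figure D4:**
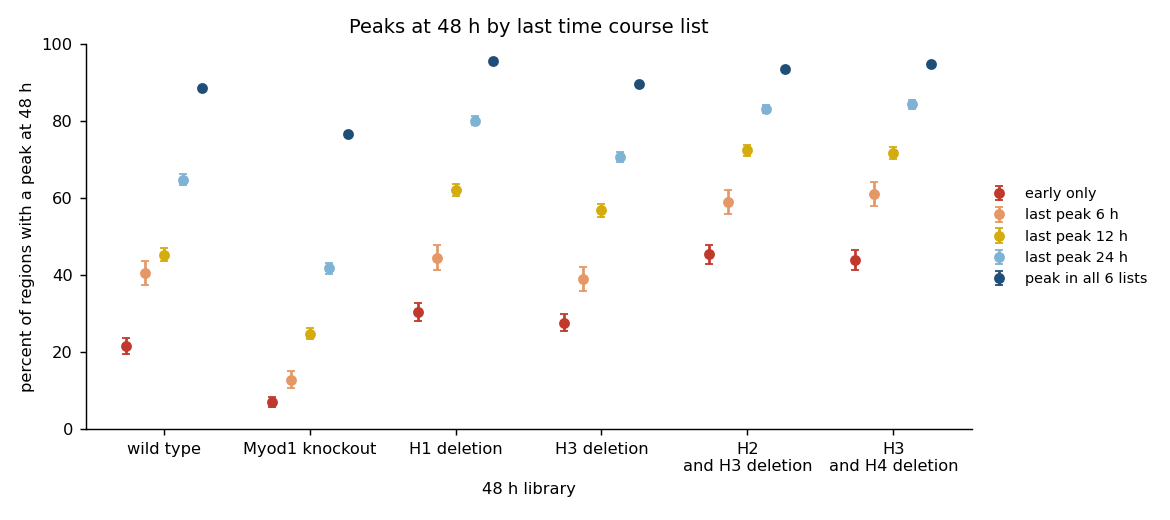
Percentage of regions with a peak in each 48 h library (x axis), by the last list of an unbroken run of peaks from -24 h. Points are single libraries and bars 95% Wilson intervals over regions. Early-only regions (red) run from 7.03% in the Myod1 knockout to 45.4% in the H2 and H3 deletion and are the lowest class in every library.

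In every 48 h library the share rose with each longer-lived class. The 24 and 72 h lists, on either side of 48 h, helped to define these classes, and width rose across the classes too. In the wild type it went from 21.5% in early-only regions to 40.7% in those last seen at 6 h, 45.4% at 12 h, 64.7% at 24 h and 88.5% for those in all 6 lists. In the Myod1 knockout the same classes had 7.03%, 12.8%, 24.8%, 41.8% and 76.6%. Early-only regions were also the lowest class within ranges of score. Among regions under the mean percentile of 20 at -24 and 0 h, 19.3% (15.7 to 23.5, n = 399) of early-only regions had a wild-type peak at 48 h and 56.1% (50.3 to 61.7, n = 289) of those in all 6 lists. From percentile 40 to 60 the shares were 23.5% and 76.3%. Split by the joint width of the early peaks, the wild-type share rose at each step under 200 bp and from 200 to 300 bp. Wider regions did not keep this order. From 300 to 500 bp the classes last seen at 6 and 12 h had 42.1% and 41.9%. From 500 bp up the classes had 55.4% (44.1 to 66.2, n = 74 early-only regions), 63.4%, 55.9%, 72.2% and 91.8% in order. Joint width includes any gap between the early peaks. In the 28 early-only regions with such a gap, the wild-type 48 h peak was fixed by the merging. How many of these were among the 74 was not determined, so the 55.4% may be raised by the merging. Within the early-only class the wild-type share was 19.3%, 21.7%, 23.5% and 25% over 4 rising ranges of percentile, the last resting on 44 regions. That of the H3 and H4 deletion went from 36.1% (31.5 to 40.9) over 45.4% and 48.6% to 56.8% (42.2 to 70.3), and that of the H2 and H3 deletion was 41.4%, 45.0%, 52.1% and 40.9%. In the 286 early-only regions with no later peak within 5 kb, 25.5% (20.8 to 30.9) had a wild-type peak and 7.69% a Myod1 knockout peak. Among the deletion lines the shares there were 25.9% (21.1 to 31.2) for H1 and 23.1% (18.6 to 28.3) for H3. They were 38.8% (33.3 to 44.6) for H2 and H3 and 41.6% (36.0 to 47.4) for H3 and H4. The shares over all early-only regions were higher, but lay within these intervals for every line except the H2 and H3 deletion.

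The gap between the H1 line and the 2-site deletions was set against the other pairs of lists. The percentage with a peak in the H1 deletion minus that in the H2 and H3 deletion was -15.0 points in early-only regions, the lowest of the 15 pairs, and +22.0 points in those of the pair 24 and 72 h, the highest. Against the H3 and H4 deletion the values were -13.6 points, second lowest after -24 and 6 h (-13.8), and +21.4 points for 24 and 72 h. The 4 lowest values against the H2 and H3 deletion belonged to pairs of times up to 12 h. The H1 list was the longer of the pair, with 137960 against 124609 peaks. Early-only regions also had the lowest share of the 15 pairs in the H1, H3 and H3 and H4 deletions. From the lowest, they ranked 2 in the Myod1 knockout and the H2 and H3 deletion, and 4 in the wild type. The pair -24 and 0 h is the only 1 of the 15 without a later list.

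**Figure D5:**
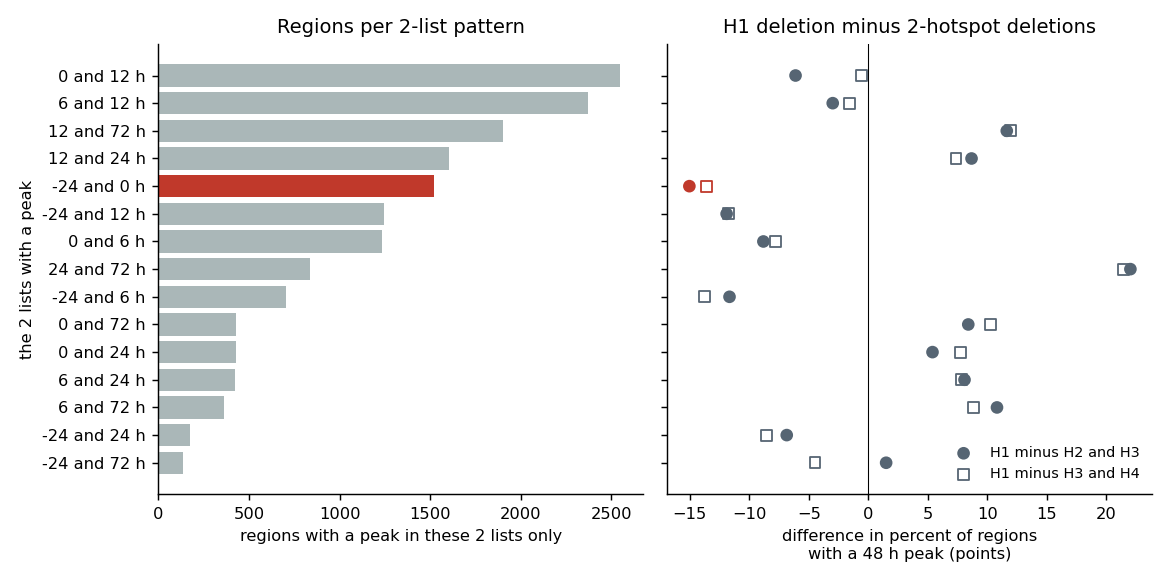
The 15 patterns of regions with a peak in exactly 2 of the 6 selecting lists (y axis), with early-only regions in red. Left, the number of regions, with early-only regions at 1523. Right, the percentage of regions with a 48 h peak in the H1 deletion minus that in the H2 and H3 deletion (circles) or the H3 and H4 deletion (squares), in points. Early-only regions have -15.0 and -13.6 points, and regions of 24 and 72 h +22.0 and +21.4.

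Much of that gap was lost when peaks that only reached into an early-only region were left out. Counting a 48 h peak only when its summit fell within the stretch of the -24 and 0 h peaks, the shares were 16.2% in the wild type, 5.58% in the Myod1 knockout, 20.1% in the H1 deletion, 16.1% in the H3 deletion, 22.5% in the H2 and H3 deletion and 26.0% in the H3 and H4 deletion. The H1 deletion minus the H2 and H3 deletion was then -2.43 points, still the lowest of the 15 pairs, beside 5.87 points over the other 14 together. Against the H3 and H4 deletion it was -5.91 points, rank 3 from the lowest. By summit, the early-only share was the lowest of the 15 pairs in the H1 deletion only. It ranked 2 in the H3, the H2 and H3, and the H3 and H4 deletions, and 5 in the wild type and the Myod1 knockout. Where a 48 h peak overlapped an early-only region, its summit lay within the early peaks in 75% of cases in the wild type, 66.2% in the H1 deletion and 49.6% in the H2 and H3 deletion. For regions that missed the rule by 1 later list these were 74.7%, 70.6% and 58.5%, and for regions in all 6 lists 96.4%, 92.3% and 88.3%. The overlapping peaks of the H2 and H3 deletion were wide, with a median of 672 bp against 349 bp for its whole list. Those of the H1 deletion had 298 bp against 293 bp.

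The overlapping 48 h peaks also ranked differently within their lists. By −log10 p, the median percentile was 32.3 in the wild type and 34.1 in the Myod1 knockout. It was 47.0 in the H1 deletion and 51.3 in the H3 deletion, and 67.7 in the H2 and H3 deletion and 59.1 in the H3 and H4 deletion. The wild-type and knockout lists have a higher cutoff than the others, so a given percentile marks different strengths.

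Combinations of libraries showed how far the 48 h calls were shared. Both 2-site deletions had a peak in 491 early-only regions (32.2%, 29.9 to 34.6). That was below the 40.4% of the other patterns of 2 lists and the 50.6% of regions with a peak in at least 1 selecting list. In 213 of the 491 the H1 deletion had none (14% of early-only regions, 12.3 to 15.8, against 9.71% in the other patterns of 2 lists). The reverse, a peak in the H1 deletion and none in either, was found in 73 (4.79%, 3.83 to 5.98, against 10.4%). All 4 deletion lines had a peak in 209 (13.7%, against 24.4%). At least 1 deletion line had a peak where the wild type had none in 649 (42.6%, against 52.4%, and against 38.2% of all regions with a peak in at least 1 selecting list). A single library accounted for the only 48 h peak in 278 regions. It was the H2 and H3 deletion in 97, the H3 and H4 deletion in 89, the H1 deletion in 48, the wild type in 20, the H3 deletion in 14 and the Myod1 knockout in 10. The H1 deletion alone thus made up 3.15% of early-only regions, against 6.93% of the other patterns of 2 lists and 4.98% of regions with a peak in at least 1 selecting list. For the H2 and H3 deletion alone the shares were 6.37%, 3.75% and 3.09%, and for the H3 and H4 deletion alone 5.84%, 4.27% and 3.48%. The wild type alone had 1.31%, 0.68% and 0.61%, and the H3 deletion alone 0.92%, 1.19% and 0.85%. The Myod1 knockout alone had 0.66%, 0.21% and 0.16%, the first resting on 10 regions. All 6 libraries had a peak in 31 (2.04%, against 4.16% and 20.6%).

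The widest early-only regions owed their width to the 48 h wild-type peak. With such a peak the median width was 426 bp, without it 235 bp, and in 295 regions (19.4%) the 48 h list extended the region past its early peaks. The widest, chr15:68909205-68910874, spanned 1670 bp, all of it 1 wild-type 48 h peak with a −log10 p of 30.31, while the early peaks were 253 and 245 bp. All 6 libraries at 48 h had a peak there. The summit lay within the early peaks only in the H1 deletion and the H3 and H4 deletion. The nearest later peak lay 27.2 kb away and the nearest 6 h peak 676 kb away. The next, chr15:55130910-55132511 (1602 bp), had a wild-type peak with a −log10 p of 39.21 and peaks in 3 of the deletion lines. Again there was no later peak within 30.1 kb. Its wild-type summit lay outside the early peaks, and the summits of the 3 deletion lines within them. In chr1:170364837-170366125 (1289 bp) the early peaks shared no base and were joined through the wild-type 48 h peak. Peaks at 48 h were found there in 5 libraries. The fourth, chr13:13253991-13255259 (1269 bp), had a peak in all 6, with a −log10 p of 32.89 in the wild type and 10.84 in the Myod1 knockout.

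The early-only region with the strongest wild-type peak at 48 h was chr2:72719796-72720549, with a −log10 p of 58.42 and a fold enrichment of 16.81. It ranked at percentile 94.9 of its list, against 52.3 at -24 h and 39.0 at 0 h, and its early peaks shared no base. They were joined only by this wild-type 48 h peak, so the presence of that peak followed from the merging. The H2 and H3 deletion had a −log10 p of 74.57 there and the Myod1 knockout had no peak. Its nearest later peak lay 96.0 kb away. The next, chr11:95937214-95938014, had a −log10 p of 53.57 in the wild type and peaks in all 4 deletion lines, and its early scores were 7.28 and 8.71. In chr8:127483723-127484585, with a −log10 p of 42.26, the H1 deletion and the H3 and H4 deletion had peaks as well. In chr15:62331388-62332586 the wild type had a −log10 p of 39.9996 and all 4 deletion lines had a peak. None of these 4 regions had a Myod1 knockout peak.

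Among the 61 regions with a knockout peak and no wild-type peak at 48 h, the strongest was chr12:72411263-72411448, with a knockout −log10 p of 21.80 and a fold enrichment of 11.78. The summit of that peak lay outside the early peaks. The same held for chr8:36651430-36651704, where the knockout had a −log10 p of 18.91 and the H2 and H3 deletion 95.69. In chr5:149865008-149865244 (13.41) and chr1:88051417-88051657 (10.84) the knockout summit lay within the early peaks. Both were narrow, at 237 and 241 bp, and had early scores between 6.24 and 8.53. The nearest wild-type 48 h peak lay 376 and 158 bp from these regions. It lay 344 bp from the chr8 region and 22717 bp from the chr12 region. Of the 1195 early-only regions without a wild-type 48 h peak, 42.7% (39.9 to 45.5) had one within 1 kb. The share was 44.0% in the other patterns of 2 lists.

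The strongest of the 536 regions with no peak in any 48 h library included chr2:180170990-180171899 and chr12:96838025-96838214, described above. After them came chr10:120021398-120021872, with scores of 20.14 and 13.40, and chr1:192821291-192821956, with 13.34 and 19.69. A later peak lay 1123 bp from the former and 298 bp from the latter. These regions were listed in both early libraries and in none of the other 10. A Myod1 knockout peak lay 294 bp and an H2 and H3 deletion peak 299 bp from chr1:192821291-192821956. For the rest of these regions the nearest 48 h peak was at least 1302 bp away.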

How the data were processed

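H3K27ac peak lists of 12 libraries were used. The submitters' processing notes name MACS2 2.1.0 and the build mm9. Sources used here do not name the aligner, the control or the cutoffs. The time course lists deposited by the authors give a score of no stated unit. The deposited 48 h lists give a score, a fold enrichment ratio over background, −log10 p and −log10 q values and a summit. All were used only to rank, filter or describe peaks within a list, and percentiles are mid-ranks within a list.

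Peaks were joined on 1 shared base. Distances run from edge to edge. Analyses used Python 3.11.15, numpy 2.4.6 and pandas 2.3.3, and the joining and distance steps were tested on simulated data. Named regions were the strongest, widest, most grouped and strongest at 48 h, and those nearest the edge of the rule. The regions and lists were chosen with earlier results of these data known. Splits by score, by width and by distance, the 15 pairs and the summit position were chosen after seeing the data. Sequences were not used, since no mm9 genome was at hand. With 1 library per condition, no replicate could be left out.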

Additional observations from a re-analysis of the deposited data

How the results depend on the processing

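Of 91 alternative values for 12 results, 34 stayed within the 95% interval of the reported value (or within 1.5 times a count) and 57 moved. In all settings the Myod1 knockout had the lowest 48 h share and both 2-site deletions stayed above the H1 deletion. The number of early-only regions was 513 with peaks within 1 kb merged and 2853 without the 12 h list. Median width was 234 bp with the 48 h list left out of the merging, 645 bp with peaks within 1 kb merged, 289 bp with equal numbers of strongest peaks and 296 bp without 12 h. The 0 h percentile was 38.9 with equal lists and 29.5 without 12 h. Regions with another within 50 kb were 33.9% without the 48 h list in the merging, 8.38% with merging within 1 kb and 43.5% without 12 h, and 18.5% within 10 kb or 41.0% within 100 kb. A 6 h peak was within 1 kb of 60.9% without the 48 h list in the merging and 53.8% with equal lists, within 200 bp of 16.5% and within 5 kb of 72.8%. Merging within 1 kb leaves no 6 h peak that near, so it has no value there.

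For the 48 h libraries, leaving the 48 h list out of the merging gave 31.0% in the wild type, 34.8% in the H1, 31.5% in the H3, 49.7% in the H2 and H3 and 48.1% in the H3 and H4 deletion, and 30.95% with no peak. Merging within 1 kb gave 32.8% in the wild type, 9.55% in the Myod1 knockout and 47.6% in the H3 and H4 deletion. The H1 and H3 deletions had 31.6% and 27.3% there, below the wild type. Equal numbers of strongest peaks in the selecting lists gave 26.0%, 9.001%, 36.9%, 33.7%, 52.7% and 51.7% (wild type, knockout, H1, H3, H2 and H3, H3 and H4) and 28.6% with none. Without 12 h, the knockout had 10.7%, H1 37.6%, H3 33.8%, H2 and H3 53.0%, H3 and H4 50.9% and none 29.3%. Equal numbers of 48 h peaks gave 14.45% in the wild type, 10.7% in H1, 15.5% in H3, 29.4% in H2 and H3, 23.9% in H3 and H4 and 54.7% with none. An overlap of 50% gave 26.4% in H1, 25.2% in H3, 41.2% in H2 and H3, 40.05% in H3 and H4 and 38.9% with none. Summits within the early peaks, added after seeing the data, gave 16.2%, 5.58%, 20.1%, 16.1%, 22.5% and 26.0%, and 49.1% with none. Apart from the change each setting makes by its own construction, the cause was not tested. A score of at least 5 and a −log10 p of at least 4 moved none of the results they were tried on. The wild-type and knockout lists at 48 h start at 4.13 and 4.02, so a −log10 p of 4 could not change their values. Equal numbers of 48 h peaks left the knockout list whole. Wild-type 48 h peaks lay within the merged regions by construction, so a 50% overlap could not change their share. These fixed values are counted among the 34. No paired analysis was possible because each condition has 1 library. With unknown depth, a missing peak may be a weak one.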

Other observations

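By chromosome, the early-only share of regions with -24 and 0 h peaks ran from 2.35% (1.45 to 3.78, 16 of 681) on X to 4.93% (4.18 to 5.79, 138 of 2802) on chromosome 1. These 2 intervals do not overlap, and they were picked as the extremes of 20 chromosomes.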
